A study of Mus musculus with 6 samples.

Results

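Gap junctions are channels of connexin proteins that join the cytoplasm of neighbouring cells, and 8 connexin genes of the mouse forebrain are described here across 6 mice. The 8 genes were taken by name from the 35275 gene identifiers of the deposited tables, and they were chosen from connexins with known roles in oligodendrocytes, astrocytes, neurons and vessels, with results of the cKO against control comparison already known. Their differences between the groups are therefore given as a description and support nothing by themselves. The cKO group held 3 mice with the genotype Pdgfra-CreER:Parp1fl/fl, in which tamoxifen lets a recombinase made by Pdgfra-expressing cells delete the floxed Parp1 gene, and the control group held 3 Parp1fl/fl littermates without Cre. Both groups carried the floxed alleles in the C57BL/6 strain and received tamoxifen on postnatal days 1, 2 and 3, and forebrain RNA was taken on postnatal day 9. Pdgfra marks oligodendrocyte precursors, and it is also made by some fibroblasts, so the deletion is not confined by design to 1 cell type. The comparison asked how gene expression in the developing forebrain differs when the enzyme Parp1, which adds poly(ADP-ribose) to proteins, is deleted in these cells.

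In the brain, connexins are divided among cell types. Astrocytes use Gja1 and Gjb6 to form a network that spreads potassium, glutamate products and calcium signals, and oligodendrocytes use Gjb1 and Gjc3, of which Gjb1 helps to couple them to that network. Neurons use Gjd2 for electrical synapses. Vessels use Gja4 and Gja5 in arterial endothelium and Gjc1 in mural cells, and Gjc1 is made by some neurons as well.

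Of the 8 connexins, Gjc3, the connexin of oligodendrocytes and their precursors, was the 1 that fell in cKO forebrains. It reached 29.8% of the control level, with a 95% confidence interval from 22.9% to 38.7%. The astrocyte connexins Gja1, Gjb6 and Gjb2, the neuronal Gjd2, the neuronal and mural Gjc1 and the vascular Gja4 differed by less than the test could call. The other oligodendrocyte connexin of the 8, Gjb1, was at so few reads that a moderate difference in either direction was not detectable at this depth. Called means an adjusted p under 0.05 over all 16938 genes tested by edgeR's quasi-likelihood test, and 0.266% of the tested genes were called in either direction and 0.207% of the tested genes as lower in cKO. The median log2 fold change was -0.05 over the 8 connexins and -0.001 over all tested genes. In bulk tissue, fewer cells of a type and less RNA per cell cannot be told apart.

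The libraries held 17262042 to 29310193 counts. Parp1, the targeted gene, was at 80.8, 79.7 and 79.1 CPM in cKO and at 90.8, 97.3 and 85.6 CPM in controls, where CPM are counts scaled to a common library total. All cKO libraries lay below all controls, as in 5.86% of all tested genes. The log2 fold change of -0.19 (interval -0.33 to -0.05) was not called (edgeR adjusted p = 0.572). A list of 12 microglial genes summed to 510 to 624 CPM in cKO and 330 to 501 CPM in controls, without overlap. EdgeR called none of them (0), DESeq2 called 3 and limma-voom 0. Over all genes edgeR called 45, DESeq2 113 and limma-voom 62. An unadjusted edgeR p under 0.05 was reached by 7 of the list, against 6.27% of all tested genes. The part of microglia in the connexin values was not tested. Control replicate 1 was the 1 library with more than 1 read of the Y-linked gene Ddx3y. Control replicate 3 stood apart in striatal and thalamic genes, as given beside Gjd2, and also across genes in general. The mismatch of counts within a pair of libraries (chi-square per degree of freedom) was 15.15 to 21.95 in pairs with control replicate 3. It was 4.09 to 8.16 in the other pairs. The part of this difference in the connexin values was not tested beyond leaving that library out.

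The DNA before the start of 3 of these genes is shown because it lets the connexin that fell be set beside an oligodendrocyte and an astrocyte connexin that were not called. Each line gives the 250 bases before a RefSeq start site, 5′ to 3′ on the gene's strand, in GRCm38.p6, the build also called mm10. The Gjc3 window is chr5:137963099-137963348 on the minus strand, the Gjb1 window, which lies before the last of the 4 Gjb1 starts listed, is chrX:101383482-101383731 on the plus strand, and the Gja1 window is chr10:56377050-56377299 on the plus strand. Capitals mark the core letters bound by SOX factors such as Sox10, ACAAAG or ACAATG, on either strand.
Gjc3: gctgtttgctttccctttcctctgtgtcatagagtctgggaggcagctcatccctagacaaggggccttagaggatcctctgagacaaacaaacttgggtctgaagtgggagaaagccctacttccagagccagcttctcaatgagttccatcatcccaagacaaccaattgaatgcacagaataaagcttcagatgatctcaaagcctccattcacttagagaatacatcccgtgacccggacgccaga
Gjb1: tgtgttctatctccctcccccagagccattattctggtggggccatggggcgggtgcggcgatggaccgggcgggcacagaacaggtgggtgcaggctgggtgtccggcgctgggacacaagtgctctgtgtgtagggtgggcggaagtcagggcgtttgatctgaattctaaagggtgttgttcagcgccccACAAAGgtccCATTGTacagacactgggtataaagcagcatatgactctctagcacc
Gja1: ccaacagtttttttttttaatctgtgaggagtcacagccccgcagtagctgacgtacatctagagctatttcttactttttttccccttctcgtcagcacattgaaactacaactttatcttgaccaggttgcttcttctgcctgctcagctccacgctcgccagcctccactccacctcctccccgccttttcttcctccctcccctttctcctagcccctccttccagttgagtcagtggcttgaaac
The Gjc3 and Gja1 windows held neither core. The Gjb1 window held ACAAAG and, after 4 bases, CATTGT, which is ACAATG read on the other strand. Of 32851 RefSeq windows of this length, 25.2% held at least 1 of the cores, and 2 windows (0.00609%) held both cores facing each other at that spacing, a spacing chosen after the Gjb1 window was seen. SOX10 is known from human work to act on the GJB1 gene, and no binding was measured here. Windows were listed for 7 of the 8 connexins, all but Gjc1. Of the other 3 Gjb1 windows, the first (chrX:101376126-101376375) held ACAAAG once, at position -176 from the start, and 2 held no core. No SOX core was found in the windows of Gjd2, Gja4, Gjb2 and Gjb6. The GC box GGGCGG, which Sp factors bind, stood in the windows of Gjd2, Gja4 and Gjb2 and in the last Gjb1 window, as in 32.7% of all windows. GC content was 74.0% before Gjd2, 69.2% before Gjb2, 61.2% before Gja4, 58.4% in the last Gjb1 window and 56.8% before Gjb6. It was 48.8% before Gjc3 and 50.0% before Gja1, against a median of 52.4% over all windows. The other Gjb1 windows were at 40.4%, 50.0% and 53.2%.

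Per length, Gja1 was by far the most abundant connexin in both groups. Levels between genes are compared in the deposited FPKM, fragment counts scaled by gene length and by library total. Gja1 averaged 87.5 ± 2.01 FPKM in cKO and 83.0 ± 4.59 FPKM in control forebrains (SD, n = 3 mice each). Gjb6 averaged 19.8 ± 3.21 FPKM in cKO and 16.5 ± 2.77 FPKM in controls, and Gjd2 averaged 8.04 ± 1.15 FPKM in cKO and 9.05 ± 1.79 FPKM in controls. Gjc1 averaged 5.51 ± 0.208 FPKM in cKO and 4.66 ± 0.440 FPKM in controls. These 4 genes held the same ranks in both groups. In controls Gjc1, Gjc3, Gja4 and Gjb2 followed each other with overlapping libraries, Gjc3 at 3.65 ± 0.579 FPKM, Gja4 at 3.55 ± 0.451 FPKM and Gjb2 at 2.37 ± 0.605 FPKM. In cKO forebrains the Gjc3 libraries, at 1.08 ± 0.196 FPKM, lay below every Gjb2 library, at 2.30 ± 0.143 FPKM, and Gja4 was at 3.32 ± 0.634 FPKM. Gjb1 came last of the 8 in both groups, at 0.529 ± 0.161 FPKM in cKO and 0.561 ± 0.0414 FPKM in controls. The FPKM of Gja1 rests on a length of 3105 bp, whereas its annotated exons together span 10257 bp, and with that length its level was 26.5 in cKO and 25.1 in controls on the same scale, still above every other connexin. With these lengths Gja4, at 3.32 in cKO and 3.55 in controls, lay below Gjc1 in cKO (3.76) and above it in controls (3.18).

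**Figure D1:**
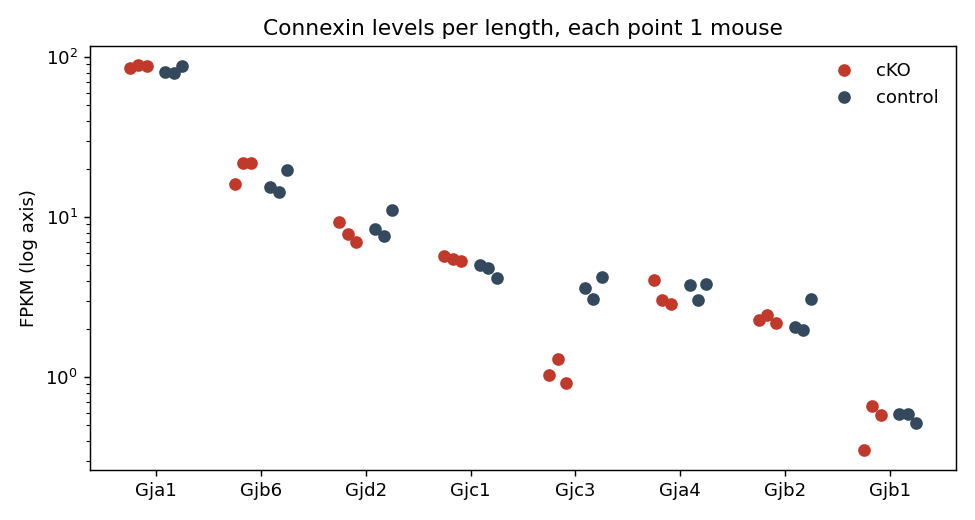
Deposited FPKM (log axis) of the 8 connexins in each mouse, cKO left of control, genes ordered by control level. Gja1 stands above all others in every mouse, and Gjc3 is the gene whose points separate by group most widely, at 1.08 FPKM in cKO and 3.65 FPKM in controls on average.

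The oligodendrocyte connexins are taken first. Gjc3 (ENSMUSG00000056966, chromosome 5, 137953461 to 137963098, minus strand, a protein-coding gene whose exons overlap no other gene) forms a connexin that oligodendrocytes and their precursors make. It had 72, 114 and 95 reads in cKO replicates 1, 2 and 3, and 219, 234 and 330 reads in control replicates 1, 2 and 3. After TMM normalisation, a scaling of library sizes, this was 3.55, 4.60 and 3.30 CPM in cKO, against 12.6, 10.8 and 15.1 CPM in controls. Every cKO library lay below every control, and the highest cKO value was less than the lowest control value by more than the range within the cKO group. A complete separation in this direction was seen in 5.86% of all tested genes. The log2 fold change was -1.75 (95% confidence interval -2.13 to -1.37, edgeR adjusted p = 3.51e-04), and Gjc3 was called under each of the 18 alternative settings, at log2 fold changes from -1.91 to -1.15 and adjusted p up to 0.0297. Without control replicate 3, its highest library, the log2 fold change was -1.62. By size of fall it ranked 10 of the 35 genes called as lower.

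Gjb1 (chromosome X, 101376378 to 101385629, plus strand) forms the gap junction channels of myelin in the brain and in peripheral nerve, where human mutations cause an X-linked neuropathy. It had 11, 26 and 27 reads in cKO, against 16, 20 and 18 in controls, or 0.543, 1.05 and 0.939 CPM in cKO against 0.924, 0.920 and 0.821 CPM in controls. The groups overlapped, and cKO replicate 1 was the lowest library. Gjb1 had a log2 fold change of -0.05 with an interval from -0.81 to 0.71 (edgeR adjusted p = 0.987), and it was 0.16 without cKO replicate 1. The gene is X-linked, and control replicate 1, with 1123 reads of the Y-linked Ddx3y against at most 1 in the other libraries, did not stand apart at Gjb1.

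The interval of Gjb1 lay wholly above that of Gjc3. Within each library, Gjc3 reads were 6.55, 4.38 and 3.52 times those of Gjb1 in cKO, against 13.7, 11.7 and 18.3 times in controls. The ratio was lower in all 3 cKO mice than in any control. It holds the same Gjc3 reads as the comparison by which the genes were known, so no test is given. By FPKM, Gjc3 made up 74.7%, 66.4% and 61.3% of the sum of Gjc3 and Gjb1 in cKO and 86.1%, 84.1% and 89.2% in controls, again without overlap.

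Part of the oligodendrocyte genes fell as well. A list of 19 oligodendrocyte genes had 18 tested members, of which 8 fell (9 by DESeq2 and 7 by limma-voom), none rose (0) and 10 were not called, beside the 0.207% of all tested genes that were called lower. The median log2 fold change of the list was -0.93. The 4 members with a positive value were uncalled, namely Ermn, a cytoskeletal protein of myelinating cells, at 0.38, Gsn, an actin-severing protein, at 0.09, Trf, which carries iron, at 0.06, and Aspa, an enzyme that splits acetylaspartate, at 0.02. Ermn was at 0.987, 1.05 and 1.11 CPM in cKO against 0.866, 0.736 and 0.821 CPM in controls (edgeR adjusted p = 0.879). All its cKO libraries lay above all controls, as in 6.08% of all tested genes. Among those that fell were Bcas1, made by oligodendrocytes at the onset of myelination, at -2.25 (edgeR adjusted p = 9.51e-08), Sox10, the factor needed for oligodendrocyte differentiation, at -1.41, and Myrf, the myelin gene regulator, at -1.66. The summed level of the list was 350 to 385 CPM in cKO and 631 to 775 CPM in controls. Of 15 precursor genes edgeR called 5 as lower, DESeq2 called 10 and limma-voom 7. Over all genes, edgeR called 35 as lower, DESeq2 62 and limma-voom 45, so the counts of the tools have unlike backgrounds. An unadjusted edgeR p under 0.05 was reached by 14 of the precursor genes, against 6.27% of all tested genes. All 15 had a negative log2 fold change, with a median of -0.57. Their sum was 1440 to 1600 CPM in cKO and 1980 to 2030 CPM in controls. C1ql1, a secreted protein of precursors, fell by 1.72 on the log2 scale (edgeR adjusted p = 2.02e-04). Neu4, a sialidase, fell by 2.47 (4.45e-04). These lists were picked with earlier results of the same mice known. The ratio of Gjc3 to Sox10 overlapped between the groups, at 0.212, 0.269 and 0.200 in cKO against 0.265, 0.258 and 0.336 in controls. The ratio of Gjc3 to Mbp, also of the oligodendrocyte list, did not overlap. It was 0.032, 0.0386 and 0.027 in cKO against 0.0456, 0.0448 and 0.0461 in controls. The ratio of Gjc3 to Pdgfra did not overlap, at 0.0315, 0.0330 and 0.0312 in cKO against 0.0789, 0.0717 and 0.0839 in controls. Pdgfra itself was at 113, 139 and 106 CPM in cKO, below all controls, at 160, 150 and 179 CPM. Its log2 fold change of -0.45 (interval -0.69 to -0.21) was not called (edgeR adjusted p = 0.253). These ratios hold the same Gjc3 reads as the comparison by which the genes were known, so no test is given.

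The gene whose log2 CPM was most like that of Gjc3 over the 6 libraries, among 12066 genes with a mean of at least 5 CPM, was C1ql1 (Pearson r = 0.9961), and Prkcq and Dhx30 followed (0.9954 and 0.9949). These values describe 6 points that fall into 2 groups, and they share libraries and scaling. For the other connexins, the most alike gene had r from 0.9878 for Gjb6 (with Caskin1) to 0.9975 for Gjb2 (with Carmil3), so a gene of closely similar pattern was found for every connexin, called or not.

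The astrocyte connexins did not pass the test. Gja1 (chromosome 10, 56377330 to 56402513, plus strand) is the main channel of astrocytes and is also made by meningeal and vascular cells. It was at 260, 278 and 279 CPM in cKO, against 251, 245 and 276 CPM in controls. The groups overlapped through control replicate 3. Its log2 fold change was 0.08 with an interval from -0.06 to 0.23 (edgeR adjusted p = 0.883), which places its level in cKO at 95.7% to 117% of the control level, the narrowest interval of the 8 connexins. Gjc3 reads per Gja1 read were 0.0136, 0.0165 and 0.0119 in cKO and 0.0504, 0.0439 and 0.0545 in controls.

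Gjb6 (chromosome 14, 57123303 to 57133611, minus strand), which astrocytes add as they mature, was at 33.3, 45.9 and 46.5 CPM in cKO and at 32.6, 30.0 and 41.7 CPM in controls. Within the cKO group replicate 1 sat with the lower controls, and control replicate 3 sat near the higher cKO mice. The log2 fold change was 0.27 (interval -0.11 to 0.65, edgeR adjusted p = 0.846). It was 0.41 without cKO replicate 1 and 0.42 without control replicate 3, and was not called in either case (0.686 and 0.529). With any other mouse left out it was lower, from 0.17 without control replicate 2 to 0.23 without control replicate 1, and again uncalled.

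Gjb2 (chromosome 14, 57098600 to 57104702, minus strand), found in astrocytes and in the leptomeninges, lies 18.6 kb from Gjb6 on the same strand. It was at 5.38, 5.94 and 5.32 CPM in cKO and at 4.97, 4.69 and 7.44 CPM in controls. Control replicate 3 held the highest value, and the other 2 controls the lowest. The log2 fold change was -0.04 (interval -0.46 to 0.37, edgeR adjusted p = 0.981) and turned to 0.20 without control replicate 3. The neighbours did not keep a fixed ratio, since Gjb2 reads per Gjb6 read were 0.161, 0.129 and 0.114 in cKO and 0.152, 0.157 and 0.178 in controls. A list of 18 meningeal fibroblast genes summed to 930, 1190 and 699 CPM in cKO and to 670, 717 and 1110 CPM in controls, so control replicate 3 was its highest control too, and the part of these cells in the Gjb2 values was not tested. Of the 18 genes none was called (0 by each of the 3 tools), 15 had a positive log2 fold change, and the median was 0.26. An unadjusted edgeR p under 0.05 was reached by 5, against 6.27% of all tested genes. All cKO libraries lay above all controls for 3, against 6.08% of all tested genes. Lum, a collagen-binding proteoglycan, was at 1.11 (edgeR adjusted p = 0.635) and Apod, a lipid carrier, at 0.87 (0.719).

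Of 20 astrocyte genes, which include Gja1 and Gjb6, none was called (0 by edgeR, 0 by DESeq2 and 0 by limma-voom). An unadjusted edgeR p under 0.05 was reached by 1, against 6.27% of all tested genes. The median log2 fold change was -0.02. The gene with the smallest p was S100b, a calcium-binding protein made by astrocytes and oligodendrocyte-lineage cells, with 21.7 ± 0.284 CPM in cKO mice against 29.9 ± 5.49 CPM in control mice (edgeR adjusted p = 0.256). Of 17 genes for channels, transporters and adhesion proteins that work beside glial gap junctions, none was called by any of the 3 tools (0). None had an unadjusted edgeR p under 0.05 (0), and the median log2 fold change was 0.01. The potassium channel Kcnj10 was at 0.12 (adjusted p = 0.853) and the chloride channel Clcn2 at 0.13 (0.836).

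**Figure D2:**
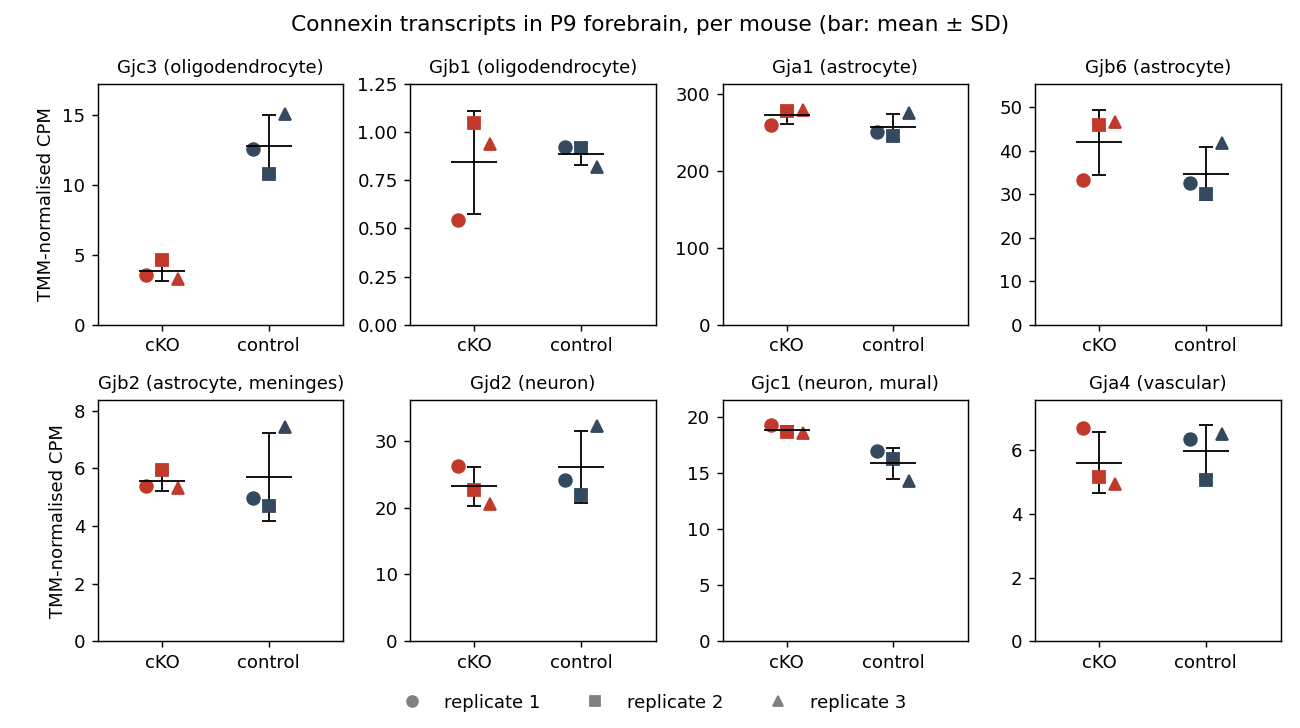
TMM-normalised CPM of each connexin in each mouse, cKO left of control, with the mean and SD as a bar and 1 marker shape per replicate number. The Gjc3 points of the cKO mice (3.30 to 4.60 CPM) lie below all controls (10.8 to 15.1 CPM), and the Gjc1 points of the cKO mice (18.6 to 19.3 CPM) lie above all controls (14.3 to 17 CPM).

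Among the neuronal connexins, Gjd2 (chromosome 2, 114009601 to 114013619, minus strand), the channel of electrical synapses, was at 26.3, 22.6 and 20.6 CPM in cKO and at 24.1, 21.9 and 32.2 CPM in controls. Control replicate 3 was above every other library, and the rest overlapped. For Gjd2 the log2 fold change was -0.17 (interval -0.50 to 0.15, edgeR adjusted p = 0.888), and it was 0.00 without control replicate 3. That library stood apart in its brain regions: 10 thalamic genes summed to 759 CPM there, against 342 to 380 CPM in cKO and 337 and 366 CPM in the other controls, and 10 striatal genes to 327 CPM, against 941 to 1070 CPM in cKO and 950 and 1200 CPM in the other controls. The part of region in the Gjd2 value was not tested beyond leaving this library out. Exons of Gjd2 overlap a gene on the opposite strand, A530058N18Rik, by 57 bp, and the strand setting of the counting is not given in the sources used here.

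Gjc1 (chromosome 11, 102799579 to 102819700, minus strand), a channel of some neurons and of mural cells, was the 1 connexin whose libraries were all higher in cKO. It was at 19.3, 18.7 and 18.6 CPM in cKO, against 17, 16.3 and 14.3 CPM in controls, and such a separation upward was seen in 6.08% of all tested genes. The log2 fold change of 0.25 (interval 0.03 to 0.47) was not called (edgeR adjusted p = 0.726). It was 0.17 without control replicate 3, the lowest library. Neuronal genes as a list were not called (0 of 18 by edgeR, DESeq2 and limma-voom, 0 at an unadjusted edgeR p under 0.05). Their sums were 6600 to 7240 CPM in cKO and 6690 to 7320 CPM in controls. Of 15 mural genes none was called (0 by each of the 3 tools). An unadjusted edgeR p under 0.05 was reached by 6.27% of all tested genes and by 3 of these mural genes. Their sums were 219 to 310 CPM in cKO and 228 to 253 CPM in controls, and Pdgfrb, the receptor of pericytes, averaged 39.6 ± 3.12 CPM over the cKO mice, against 31.9 ± 1.11 CPM over the controls (edgeR adjusted p = 0.278). The part of mural cells in the Gjc1 values was not tested.

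The vascular connexins differed more between mice than between groups. Gja4 (chromosome 4, 127311421 to 127314039, minus strand), a channel of arterial endothelium, was at 6.71, 5.17 and 4.94 CPM in cKO and at 6.35, 5.06 and 6.52 CPM in controls, with a log2 fold change of -0.10 (interval -0.48 to 0.29, edgeR adjusted p = 0.948). The value was -0.24 without cKO replicate 1, the highest cKO library, -0.21 without control replicate 2, the lowest control, and -0.02 without cKO replicate 3, and the groups overlapped. Gja5, its partner in arteries and no member of the 8, was at 2.61, 3.07 and 1.18 CPM in cKO and at 1.91, 1.89 and 2.05 CPM in controls. Its cKO values spread on both sides of the controls, with cKO replicate 3 the lowest of all 6. Its log2 fold change of 0.22 (interval -0.49 to 0.92, edgeR adjusted p = 0.940) turned to -0.07 without cKO replicate 2, and its exons overlap Gpr89 on the opposite strand by 165 bp. The mural sum was also lowest in cKO replicate 3, at 219 CPM. The endothelial sum of that library, at 531 CPM, was not the lowest, with 530 CPM in control replicate 1 and 516 CPM in control replicate 3. The part of either cell type in the Gja5 values was not tested. Endothelial genes as a list were not called (0 of 20 by each of the 3 tools). An unadjusted edgeR p under 0.05 was reached by 6.27% of all tested genes and by 1 of these endothelial genes. Their sums were 531 to 646 CPM in cKO and 516 to 573 CPM in controls.

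The connexin pool as a whole overlapped in size between the groups. Summed over the connexins analysed here it was 126, 134 and 130 FPKM in cKO and 123, 118 and 137 FPKM in controls. The oligodendrocyte pair, Gjc3 and Gjb1, took 1.09%, 1.46% and 1.15% of it in cKO and 3.41%, 3.12% and 3.48% in controls. The astrocyte connexins took 81.9%, 84.5% and 85.9% in cKO and 80.2%, 81.6% and 81.2% in controls. Gjd2 and Gjc1 together took 10.4% ± 1.28 in cKO and 10.9% ± 0.273 in controls. Mural cells make Gjc1 too, so this share is not that of neurons alone. The arterial pair, Gja4 and Gja5, took 3.13% ± 0.700 in cKO and 3.32% ± 0.241 in controls (SD, n = 3 mice each). These shares depend on the gene lengths, above all on that of Gja1. With the annotated exon lengths, a setting chosen after seeing the data, the oligodendrocyte pair took 1.89%, 2.57% and 2.07% in cKO and 5.71%, 5.37% and 5.71% in controls, and the astrocyte connexins took 66.7%, 71.8% and 73.9% in cKO and 64.2%, 66.1% and 66.2% in controls.

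The remaining connexins had few reads. Of 9 connexin genes analysed outside the 8, 3 passed the filter on low counts and none of those was called (0 by edgeR, DESeq2 and limma-voom, 0 at an unadjusted p under 0.05). Gjd3 averaged 0.837 ± 0.124 CPM over the cKO mice, against 1.07 ± 0.463 CPM over the controls. Per length it averaged 0.999 FPKM in cKO and 1.28 FPKM in controls, above the averages of Gjb1 (0.529 FPKM in cKO and 0.561 FPKM in controls). Gja6 averaged 0.491 ± 0.118 CPM over the cKO mice, against 0.644 ± 0.168 CPM over the controls. The lens connexin Gja3 had 33 reads over the 6 libraries. Gjb5 and Gje1 had 0 reads in every library, which allows up to 0.102 to 0.174 CPM per library for counting error alone. Connexins are related in sequence, and the sharing of reads between them was not tested.

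Pannexins form channels to the outside of the cell rather than between cells, and Panx1 and Panx2 were close to Gjb6 in the deposited FPKM. Panx3 had 5 reads over the 6 libraries. Panx1 was at 17.4 FPKM in cKO and 20.6 FPKM in controls, and Panx2 at 18.1 FPKM in cKO and 18.0 FPKM in controls. With the annotated exon lengths Panx1 was lower than Gjb6, at 7.8 in cKO and 9.2 in controls against 15.6 and 13.0. On that scale Panx2 was at 17.1 in cKO and 16.9 in controls. Panx1, an ATP release channel, was at 47.2, 47.6 and 46.7 CPM in cKO. It lay below all controls, which were at 53.1, 51.1 and 62.2 CPM, as 5.86% of all tested genes did. Its log2 fold change of -0.23 (interval -0.41 to -0.06) was not called (edgeR adjusted p = 0.589), and was -0.15 without control replicate 3. Panx2, a neuronal relative, averaged 61.7 ± 1.59 CPM over the cKO mice, against 60.9 ± 6.94 CPM over the controls. Of 16 genes for proteins that anchor or move gap junctions none was called (0 by each of the 3 tools), at a median of -0.03. An unadjusted edgeR p under 0.05 was reached by 2, against 6.27% of all tested genes. The 2 were Cav1, the caveolar coat protein, at -0.58 (edgeR adjusted p = 0.619), and Cgn, the tight junction protein cingulin, at 0.23 (0.725).

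**Figure D3:**
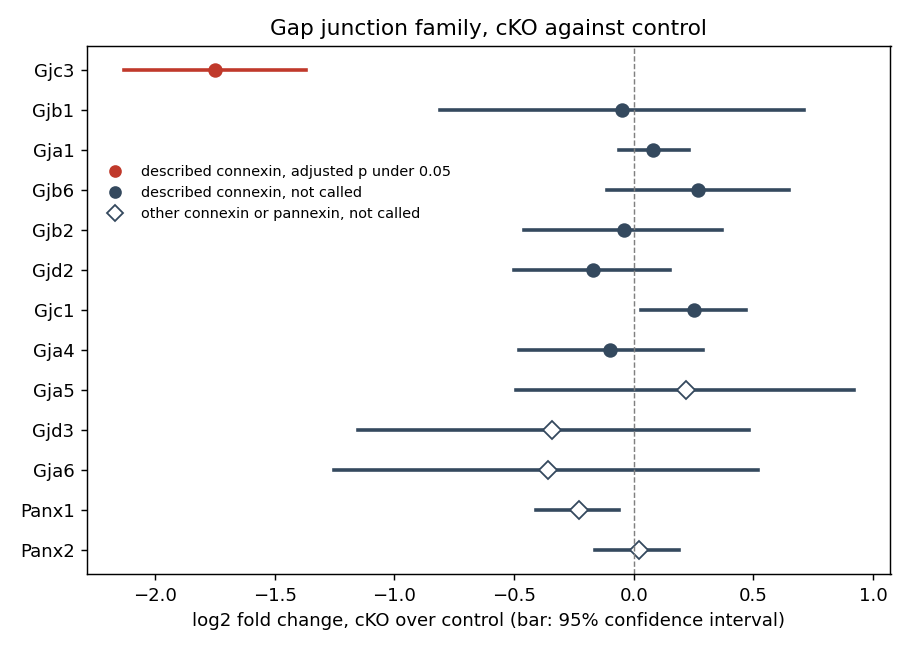
Log2 fold change of cKO over control with its 95% confidence interval for the 8 connexins (circles) and for the other tested connexins and pannexins (diamonds). The interval of Gjc3 (-2.13 to -1.37) lies apart from those of the other 12 genes, and the interval of Gjb1 is the widest among the 8 connexins.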

How the data were processed

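The deposited files hold whole-number read counts per Ensembl gene and FPKM for 6 forebrain libraries, from poly-T selected RNA and a strand-marking kit (labels' protocols). Per the submitters' processing notes, CASAVA, STAR 2.5, HTSeq 0.6.1, DESeq and mm10 are listed, in roles not stated there; the annotation release is not given in the sources used here. The deposited FPKM values equal the deposited counts divided by 1 whole length per gene (within 0.01 bp) and the library total. Totals ran from 17262042 to 29310193 counts. Low-read connexins such as Gjb1 are limited by counting error. Controls were littermates, per the labels, with no litter given for any mouse.

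Identifiers were named by GENCODE M21 (34490 of 35275). Counts were filtered by filterByExpr (minimum count 10, total 15), scaled by TMM and tested by edgeR 4.0.16 in R 4.3.3, two-sided, with robust dispersion and Benjamini-Hochberg adjustment over 16938 genes. DESeq2 1.42.0 and limma 3.58.1 were alternatives. The code was tested on simulated data. Members and lists were chosen with earlier results of these data known. Named genes were the connexins, other connexins and pannexins of at least 0.5 CPM, up to 4 genes per list with the smallest p, and the 3 genes most like each connexin. Any further gene was picked with its values in view. Some genes of the family and of the lists are not reported here and were left out of the list counts and sums.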

Additional observations from a re-analysis of the deposited data

How the results depend on the processing

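Gjc3 was the 1 called connexin, and no other connexin analysed here was called (0), in the main test and under each of the 18 alternatives. Of these, 3 exchanged the scaling (size factors of DESeq2, the upper quartile, or totals alone), 2 the filter on low counts (none, or at least 1 CPM on average), and 3 used DESeq2, limma-voom with quality weights, or edgeR without robust dispersion. Limma was run on FPKM with a pseudocount of 1 or 0.1 where the mean reached 0.5 FPKM, and with a pseudocount of 1 over all genes; the filtered scales gave no value for some rare connexins. The rest were the replicate block and each mouse left out. The smallest size for Gjc3, -1.15, came with a pseudocount of 1, which understates low genes. The number of genes called, 45 in the main test, was 111 with no filter, 113 by DESeq2, 24 by limma on either filtered FPKM scale and 21 on the unfiltered one. It ran from 28 to 60 with a mouse left out, lowest without control replicate 1. By limma-voom, Gjb2 turned to 0.16. With a mouse left out, log2 fold changes ranged from -0.24 to -0.02 for Gja4, -0.07 to 0.54 for Gja5, -0.23 to 0.16 for Gjb1, -0.17 to 0.20 for Gjb2, -0.29 to 0.00 for Gjd2, -0.61 to 0.01 for Gjd3 and -0.06 to 0.1 for Panx2, all uncalled; the cause was not tested. Mice are numbered 1 to 3 in each group, but deviations of same-numbered mice correlated at -0.011, -0.058 and -0.008, so the numbers are not taken as pairs; with a replicate block 32 genes were called, and Gjc3 was at -1.74. At this depth, Gjb1, at 118 reads over the 6 libraries, could not show a moderate change.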
